A study of Mus musculus with 6 samples.

Results

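The circRNAs described here came from genes of calcium and chloride handling in the mouse aorta. A list of 10 genes was used, namely Cacna1c, Ano1, Slc8a1, Ryr2, Ryr3, Itpr1, Itpr2, Atp2b4, Camk2d and Camk2g. Every entry of the deposited circRNA table whose host gene was on this list was taken, which gave 58 of 10023 entries. An entry is a back-splice junction, in which the downstream end of an exon or intron is joined to the upstream end of the same or an earlier one, and its count is the number of reads across that junction. Pairs of entries whose starts lay 1 base apart were summed as 1 circRNA, which left 56 of 9548 circRNAs in 9 of 3981 host genes. No entry carried the name Ryr3, so it has no value here. A further 4 entries were labelled intergenic but lay inside Cacna1c, and these are described beside the gene.

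The aortas came from male ApoE-/- mice of the C57BL/6 strain, and this deletion was carried by both groups. From 6 weeks of age, the mice received a high-fat diet (HFD) or a normal chow diet (ND) for 12 weeks, with 3 samples per diet. Each sample is 1 library and is called an aorta here, though the sources do not state that it came from 1 mouse. The whole tissue was used, so several cell types could contribute. Back-spliced reads numbered 4694 to 5621 per HFD aorta and 7142 to 7585 per ND aorta, and the smallest amount told from none, set at 3 reads, was 49.8 to 52.0 SRPBM under the HFD and 40.7 to 43.0 SRPBM under the ND (SRPBM is the deposited count scaled by the depth of each library). Linear RNA was not analysed here, so a change of a circRNA cannot be set against its host mRNA.

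Smooth muscle of the arterial wall contracts when calcium enters the cell or leaves its stores. Cacna1c encodes the pore of the L-type voltage-gated channel, through which calcium enters on depolarisation, and Ano1 encodes a calcium-activated chloride channel whose current depolarises the membrane. Itpr1 and Itpr2 encode receptors for inositol trisphosphate and Ryr2 and Ryr3 ryanodine receptors, which release calcium from the sarcoplasmic reticulum. Slc8a1 exchanges sodium for calcium across the plasma membrane and Atp2b4 pumps calcium out of the cell. Camk2d and Camk2g encode subunits of a kinase that calcium and calmodulin switch on. A circRNA of such a gene carries some of its exons and is counted apart from the mRNA.

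The back-splice junctions that carry the results are shown first, so that the shared splice sites can be seen. Each run has the last 20 bases of the circRNA's last exon in lower case, followed in capitals by the first 20 bases of its first exon, to which they are joined. The bases were read, in the direction of the gene, from GENCODE vM21 transcripts on GRCm38.
mmu_circ_0000823 (Slc8a1, exon 2, chr17:81647809-81649638, minus strand): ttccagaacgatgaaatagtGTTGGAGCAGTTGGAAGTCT
mmu_circ_0001511 (Cacna1c, exons 2 to 3, chr6:119052601-119057515, minus strand): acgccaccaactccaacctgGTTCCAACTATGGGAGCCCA
mmu_circ_0012990 (Cacna1c, exons 4 to 5, chr6:118776417-118780324, minus strand): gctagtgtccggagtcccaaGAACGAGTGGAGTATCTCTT
circRNA6626 (Cacna1c, exons 2 to 5, chr6:118776417-119057515, minus strand): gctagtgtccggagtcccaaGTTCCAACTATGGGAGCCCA
circRNA1207 (Ano1, exons 7 to 9, chr7:144644708-144650554, minus strand): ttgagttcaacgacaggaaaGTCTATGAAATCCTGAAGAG
circRNA2482 (Ano1, exons 15 to 18, chr7:144610844-144614924, minus strand): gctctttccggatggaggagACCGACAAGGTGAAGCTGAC
mmu_circ_0000079 (Atp2b4, exon 2, chr1:133753089-133753749, minus strand): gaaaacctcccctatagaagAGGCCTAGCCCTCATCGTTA
circRNA1319 (Itpr1, exons 38 to 44, chr6:108416810-108440687, plus strand): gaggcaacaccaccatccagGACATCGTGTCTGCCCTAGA
mmu_circ_0012921 (Itpr1, exons 43 to 44, chr6:108438300-108440687, plus strand): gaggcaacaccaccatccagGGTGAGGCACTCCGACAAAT
circRNA7069 (Camk2d, chr3:126796839-126798280, plus strand): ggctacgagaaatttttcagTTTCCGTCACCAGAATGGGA
The junction of circRNA6626 is made of the lower-case end of mmu_circ_0012990 and the capitals of mmu_circ_0001511. It therefore spans the exons of both other circRNAs. The 2 Itpr1 circRNAs share the end of exon 44 and differ in the exon they start with.

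Most of these circRNAs were rare. The 56 circRNAs held 405 reads over the 6 aortas, and the 7 with at least 10 reads held 282 of them. Of the 56, 24 rested on 1 read, and 33 (58.9%) had reads in 1 aorta only, against 72.3% of all circRNAs. Reads in all 6 aortas were found for 3 circRNAs. By class, 52 of the 58 entries were exonic and 6 were intronic, and the intronic entries held 16 reads. Every exonic entry had both ends at exon ends of its transcript in the annotation, allowing for a start 1 base inside the exon in entries named by Ensembl ID. The reads of the list made up 0.98, 1.33 and 1.35% of all back-spliced reads in HFD aortas 1, 2 and 3 and 1.12, 0.64 and 1.16% in ND aortas 1, 2 and 3. The mean share was 1.22 ± 0.21% under the HFD and 0.98 ± 0.29% under the ND (SD, n = 3 each), and the groups overlapped.

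The genes of the list were unequal in reads. Slc8a1 held 171 reads and Cacna1c 87, which placed them 13th and 51st of the 3981 host genes. Atp2b4 and Itpr1 each held 32, Ano1 27, Itpr2 and Camk2d 20 each, Ryr2 11 and Camk2g 5. Within most genes a leading circRNA stood beside several of a few reads. This circRNA took all 32 reads of Atp2b4, 87.1% of Slc8a1 (exact Clopper-Pearson interval, 81.2 to 91.8%), 63.0% of Ano1 (42.4 to 80.6%), 50.0% of Itpr1 (31.9 to 68.1%) and 44.8% of Cacna1c (34.1 to 55.9%). These intervals and the floors cover counting error only. The number of circRNAs per gene ran from 1 in Atp2b4 to 15 in Cacna1c, with 8 each in Slc8a1, Itpr1 and Itpr2.

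**Figure D1:**
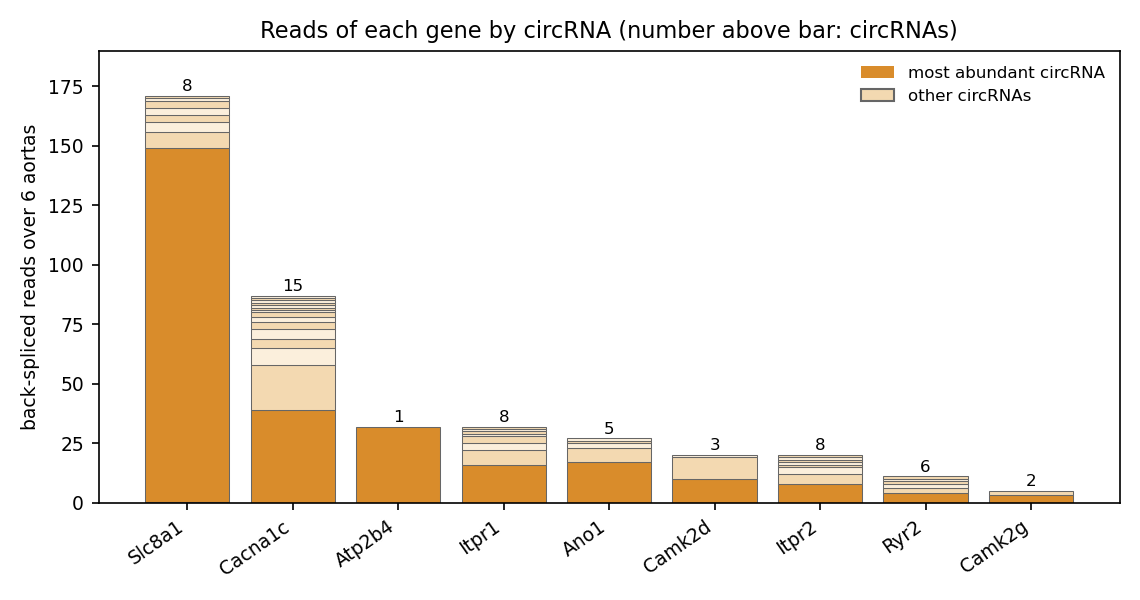
Bars give the back-spliced reads of each gene summed over the 6 aortas, cut into its circRNAs with the most abundant in dark orange, and the number above a bar counts the circRNAs. Slc8a1 (171 reads) consisted mostly of 1 circRNA, whereas Cacna1c (87 reads) was spread over 15.

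Between the diets, counts scaled by TMM were compared with the quasi-likelihood test of edgeR, for every host gene detected in 2 or more of the 6 aortas. A gene was called at the criteria of the study, which ask for a log2 fold change past 1 in either direction with an unadjusted p below 0.05. These criteria called 97 of 2240 host genes (4.33%), 40 higher and 57 lower with the HFD. With plain library size in place of TMM, the split was 48 higher and 42 lower. At an adjusted p under 0.05, 4 host genes were called (0.179%), and none was on the list. Of the 8 list genes tested, Ano1 was called, as lower with the HFD, and no other passed either rule. The median log2 fold change of the 8 was -0.11, against -0.13 over all host genes tested. Normalized reads of the diets did not overlap for 1 of the 8, again Ano1, and for 9.6% of all host genes tested. In whole aortas, fewer cells of a type and less RNA per cell cannot be told apart.

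**Figure D2:**
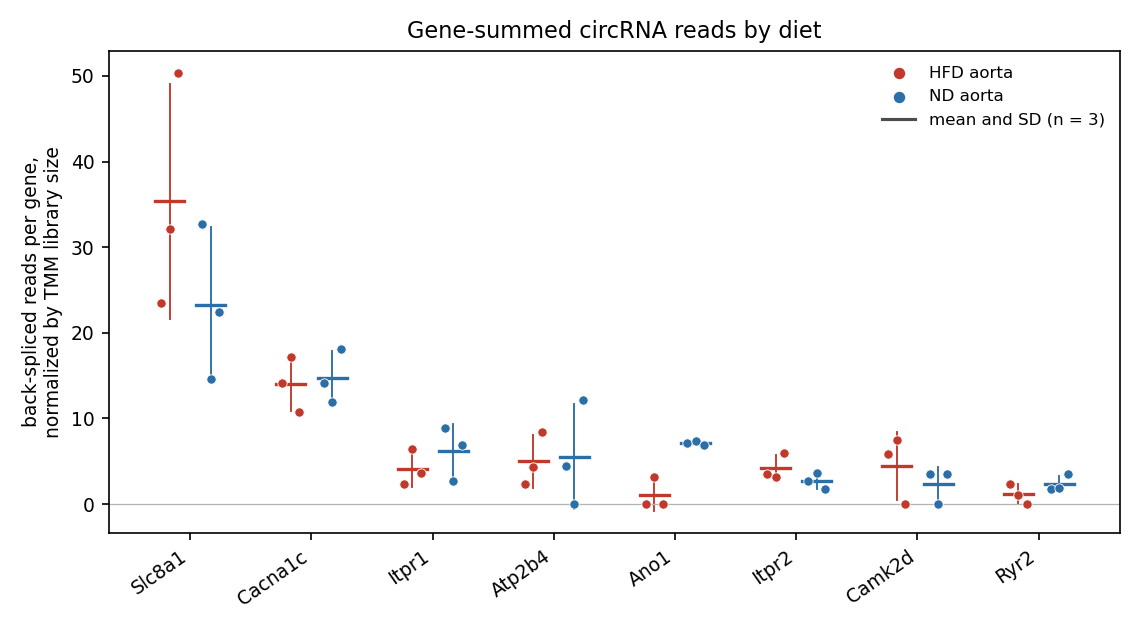
Back-spliced reads summed per gene and normalized by TMM library size are plotted for each aorta, HFD in red and ND in blue, with the mean (horizontal line) and SD (vertical line, n = 3). The ND aortas of Ano1 sit close together above all HFD aortas, while the diets overlap in the other 7 genes.

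Ano1 was the only one of the 8 genes tested whose diets did not overlap. It had 0, 3 and 0 reads in HFD aortas 1, 2 and 3 and 8, 8 and 8 in ND aortas 1, 2 and 3. Every ND aorta lay above every HFD aorta, and HFD aortas 1 and 3 had none. After normalization these were 1.07 ± 1.86 reads under the HFD and 7.10 ± 0.20 under the ND (SD, n = 3 each). HFD against ND, the log2 fold change was -2.53 (SE 0.99, adjusted p = 0.684 in edgeR). The counts put the ND level 6.19-fold above the HFD level, with a counting interval from 1.88 to 32.1 that leaves out the spread between aortas. The HFD mean was under the floor of 3 reads per aorta, so the size of this fold is not well set. The call ended without ND aorta 1 (log2 fold change -2.52) or ND aorta 3 (-2.51). Without HFD aorta 2, the one with reads, the fitted value was -5.86, which stands against 0 reads and is no bound.

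The 27 reads of Ano1 came from 5 circRNAs. The junction of exons 9 and 7, circRNA1207 with its partner entry circRNA4520, had 0, 3 and 0 reads in the HFD-fed mice and 2, 8 and 4 in the ND-fed mice. Its log2 fold change of -1.78 (SE 1.17, adjusted p = 0.605 in edgeR) did not meet the criteria, and the normalized values overlapped. It met them in limma on log2 SRPBM (-1.64) and without HFD aorta 2, where the HFD was at 0 reads. The junction of exons 18 and 15, circRNA2482, had no read under the HFD and 3, 0 and 3 under the ND. The other 3 circRNAs of Ano1 had 1 or 2 reads, all under the ND. The partner entries at the first junction are assigned to different transcripts, and the circle of circRNA4520 includes an extra exon. The capitals below mark what follows the first exon, and the extra bases stand directly at their start.
circRNA1207: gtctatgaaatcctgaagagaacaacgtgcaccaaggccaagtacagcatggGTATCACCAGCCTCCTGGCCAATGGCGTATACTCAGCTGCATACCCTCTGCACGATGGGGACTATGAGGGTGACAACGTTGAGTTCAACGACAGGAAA
circRNA4520: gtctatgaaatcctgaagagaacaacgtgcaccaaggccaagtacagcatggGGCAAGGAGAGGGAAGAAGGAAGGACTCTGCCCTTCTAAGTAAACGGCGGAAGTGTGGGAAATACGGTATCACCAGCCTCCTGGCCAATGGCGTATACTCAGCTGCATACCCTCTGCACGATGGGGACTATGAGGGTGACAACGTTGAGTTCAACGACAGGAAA
These are 150 and 216 bases long. Reads across the back-splice do not show which of them was present, since the junction is the same.

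How an entry was named bears on the Ano1 values. Entries whose gene is given as an Ensembl ID almost never held a count of 1 (10 of 1613 values above 0 in exonic entries), whereas 57.1% of the values above 0 in exonic entries named by symbol were 1. A 0 in the former may therefore stand for 1 read. Of the 27 Ano1 reads, 18 were in entries named by Ensembl ID, with none in the HFD-fed mice and 3, 8 and 7 in ND aortas 1, 2 and 3. The entries named by symbol held 0, 3 and 0 reads under the HFD and 5, 0 and 1 under the ND, which overlapped. With entries named by symbol alone, fitted over all host genes, the log2 fold change of Ano1 was -0.61 (adjusted p = 0.952 in edgeR, against 0.443 to 0.998 over all its alternatives) and the call was lost. That setting was chosen after seeing the data. It leaves out those 18 reads, all under the ND, and 12 of them lie at the junction of circRNA1207. The loss of the call follows from this and is no separate test of the diets. On the whole list, 7 of the 58 entries were named by Ensembl ID, and they held 49 of the 405 reads.

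Slc8a1 had the most reads of the list, with 20, 30 and 42 in the HFD-fed mice and 37, 16 and 26 in the ND-fed mice. Both diets spread widely and overlapped. The normalized mean was 35.3 ± 13.7 reads under the HFD and 23.3 ± 9.1 under the ND (SD, n = 3 each). A log2 fold change of 0.60 (SE 0.33, adjusted p = 0.684 in edgeR) met neither criterion. The sum, however, joins a large circRNA with smaller ones that were mostly seen under the ND.

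The large one was mmu_circ_0000823, the circularised exon 2 of Slc8a1, with 149 reads. It was the 10th most abundant of all 9548 circRNAs and held 36.8% of the reads of the list. It had 20, 29 and 40 reads in the HFD-fed mice and 27, 12 and 21 in the ND-fed mice. In normalized reads these were 25, 29.6 and 48.7 under the HFD and 24.0, 10.9 and 17.9 under the ND, and on this scale the lowest HFD aorta lay just above the highest ND aorta. The diets overlapped in raw reads and in SRPBM, where HFD aorta 1 stood at 347 and ND aorta 1 at 366. The log2 fold change was 0.96 (SE 0.34, adjusted p = 0.605 in edgeR), which met the criterion of p but stayed under the limit of 1. It passed both criteria in DESeq2 (1.05), with at least 10 reads (1.04), with plain library size (1.14), and without HFD aorta 1 (1.01) or ND aorta 1 (1.14), whereas the criterion of p was missed without HFD aorta 2 (0.92), HFD aorta 3 (0.55), ND aorta 2 (0.55) or ND aorta 3 (0.85). Within each library it ranked 8th, 6th and 4th of all circRNAs in the HFD-fed mice and 13th, 59th and 19th in the ND-fed mice.

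This exon is long, 1830 bases, and contains the start codon of the exchanger at base 32 counted from the first base of the exon. Read on from that codon, a full turn of the circle met no stop codon, and as its length is a multiple of 3 the frame is then the same. The 88670 bases upstream and 202215 bases downstream of it are introns. This describes the sequence, and translation was not measured.

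The other 7 circRNAs of Slc8a1 held few reads. The entry ciRNA149, classed as intronic, had no read under the HFD and 4, 0 and 3 under the ND (adjusted p = 0.605 in edgeR). It lies at chr17:81408067-81444972, and the end at 81408067 is an annotated exon end. circRNA629 and mmu_circ_0007051 use the same end, so ciRNA149 is not a single intron by its ends. ciRNA149 is named by Ensembl ID, so its zeros may each stand for 1 read. circRNA629 had 3 reads, all in ND aorta 1, and mmu_circ_0007051 had 1 read in each ND aorta and none under the HFD. The junction of mmu_circ_0007050 with its partner circRNA2557 had 0, 1 and 1 reads under the HFD and 2, 0 and 0 under the ND. This pair and 2 more entries began at the same exon, with 8 reads together. None of those tested met the criteria.

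**Figure D3:**
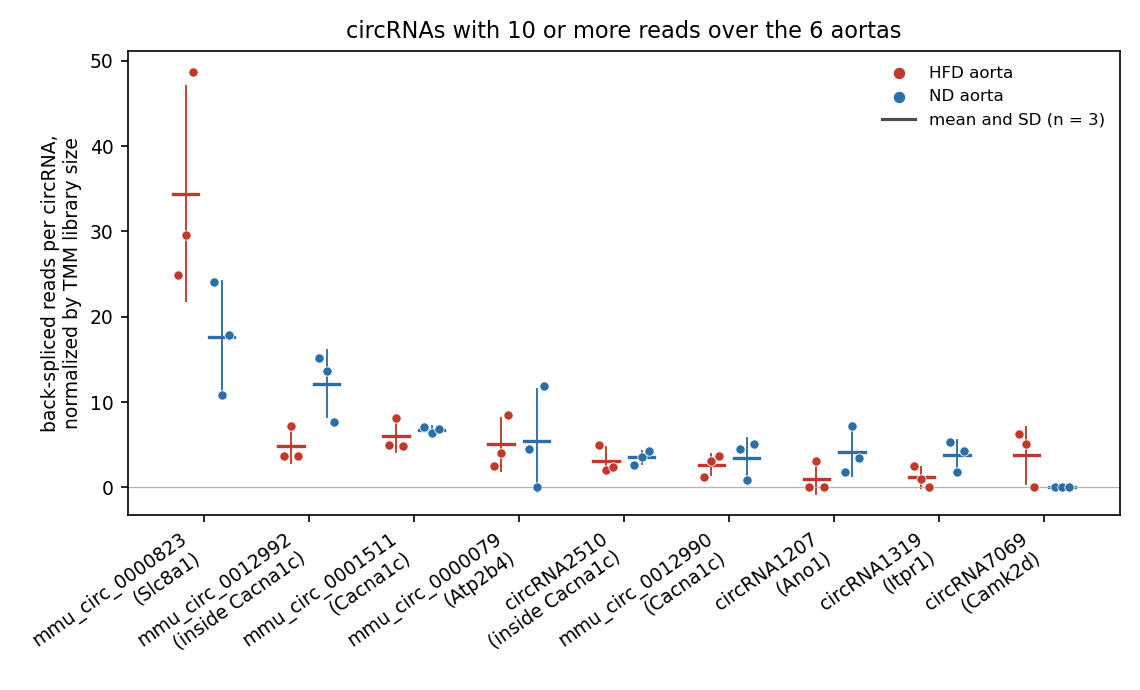
Normalized reads of the 9 circRNAs with at least 10 reads are plotted for each aorta, HFD in red and ND in blue, with mean and SD (n = 3). mmu_circ_0000823 of Slc8a1 lies higher with the HFD without overlap on this TMM scale, though not in raw reads or SRPBM, and mmu_circ_0012992, labelled intergenic and inside Cacna1c, lies lower with the HFD without overlap on all 3 scales.

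Cacna1c had 12, 16 and 9 reads in the HFD-fed mice and 16, 13 and 21 in the ND-fed mice. Normalized for depth, these were 14.0 ± 3.2 and 14.7 ± 3.2 reads (SD, n = 3 each), and the diets overlapped throughout. The log2 fold change was -0.07 (SE 0.45, adjusted p = 0.956 in edgeR), and its direction turned under several settings given in the closing section. The counting interval of the ratio of HFD to ND was 0.608 to 1.49. It leaves out the spread between aortas, so it is no bound on a change with diet.

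The leading circRNA of Cacna1c was mmu_circ_0001511, exons 2 to 3, of 428 bases. It had 4, 8 and 4 reads in the HFD-fed mice and 8, 7 and 8 in the ND-fed mice, and was thus seen in every aorta. Its log2 fold change was -0.15 (SE 0.70, adjusted p = 0.952 in edgeR). mmu_circ_0012990, exons 4 to 5, of 280 bases, was also seen in every aorta, with 1, 3 and 3 reads under the HFD and 5, 1 and 6 under the ND. It had a log2 fold change of -0.38 (SE 1.01, adjusted p = 0.952 in edgeR).

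The long form that joins both, circRNA6626, had 4, 3 and 0 reads in HFD aortas 1 to 3, with none in any ND aorta. Its difference from the shorter circRNAs was not tested. The mean of both diets was at or under the floor of 3 reads per aorta, so no fold is given. It met the criteria (adjusted p = 0.605 in edgeR), but HFD aorta 3 had no read either, so the diets overlapped. The call was lost without any one of the ND aortas (adjusted p from 0.525 to 0.561 in edgeR, and 0.458 to 0.999 over all alternatives), in DESeq2, in limma on log2 SRPBM and in the block fit, and it could not be fitted without HFD aorta 1 or 2.

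Splice sites of Cacna1c were reused. The 4 circRNAs that start at exon 2 held 51 of its 87 reads, and they ran to exons 3, 5, 9 and 10. The form to exon 9, circRNA3676, had 2 reads, both in ND aorta 2, and the form to exon 10, circRNA7635, had 0, 2 and 1 reads under the HFD and none under the ND. The end of exon 9 was shared by 5 circRNAs with 9 reads, 1 of which also started at exon 2. Among these 5, mmu_circ_0012985 and circRNA6625 began with different exons of 104 bases and continued with the same second exon. Cacna1c is known for a pair of mutually exclusive exons at this place, of which a transcript carries either. The 2 exons were identical at 72 of 104 aligned bases (69.2%). Each circRNA had 1 read, mmu_circ_0012985 in ND aorta 3 and circRNA6625 in HFD aorta 1, too few for any comparison. Their junctions differ in the capitals alone.
mmu_circ_0012985: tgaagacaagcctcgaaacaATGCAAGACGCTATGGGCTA
circRNA6625: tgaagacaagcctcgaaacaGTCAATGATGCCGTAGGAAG

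The 4 entries labelled intergenic held 81 reads, nearly as many as the 87 of the entries named Cacna1c. The largest, mmu_circ_0012992 at chr6:119002577-119005081, lay in the intron after exon 3, and neither of its ends was an annotated exon end. It had 3, 7 and 3 reads in the HFD-fed mice and 17, 15 and 9 in the ND-fed mice. Every ND aorta was above every HFD aorta, also after normalization (4.85 ± 2.00 against 12.1 ± 3.9, SD, n = 3 each). The log2 fold change was -1.28 (SE 0.63, adjusted p = 0.605 in edgeR), and the criteria were met. The ND level was 2.41-fold the HFD level in the counts (counting interval, 1.27 to 4.91). The call was lost in DESeq2, with plain library size, with the entries kept as deposited, and without HFD aorta 1, HFD aorta 3, ND aorta 1 or ND aorta 2. The log2 fold change stayed below 0 in these fits, from -1.09 to -1.35.

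Of the other 3, circRNA2510 and circRNA5965 ran from this intron back to the start of exon 2. circRNA2510, at chr6:119002577-119057515, had 4, 2 and 2 reads under the HFD and 3, 4 and 5 under the ND. The diets overlapped, with a log2 fold change of -0.17 (SE 0.97, adjusted p = 0.952 in edgeR). circRNA5965, at chr6:119005038-119057515, had 0, 2 and 0 reads under the HFD and 0, 0 and 3 under the ND, and circRNA2511, at chr6:119052601-119069189, which starts upstream of exon 2 and stops at the end of exon 3, had 2 reads in ND aorta 1 alone. In all, 6 entries shared the exon 2 site and held 76 reads. No intergenic entry of the table held a count of 1 (0 of 165 values above 0), so zeros here may also stand for 1 read. Added to Cacna1c, the intergenic entries brought its reads to 19, 27 and 14 under the HFD and 38, 32 and 38 under the ND, and the diets no longer overlapped in raw reads or, by a narrow gap, on the TMM scale (28.9 in HFD aorta 2 and 29.2 in ND aorta 2). They did overlap in SRPBM, where HFD aorta 2 stood at 448 and ND aorta 2 at 440. With them added, a step chosen after seeing the data, the log2 fold change of the gene was -0.49 in edgeR, still short of both criteria.

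**Figure D4:**
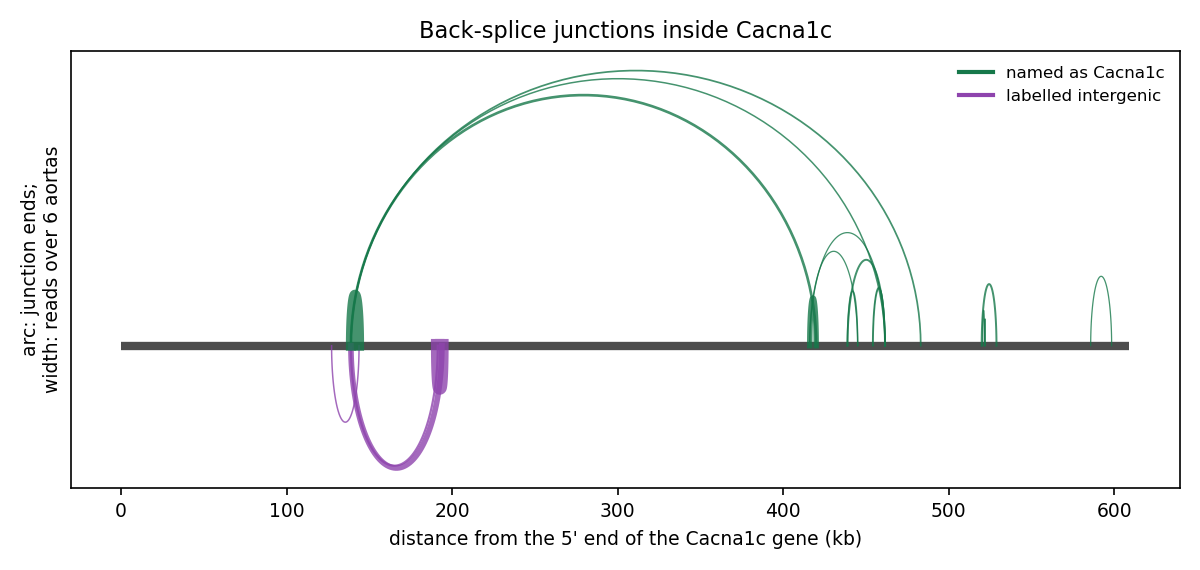
Arcs join the ends of each back-splice junction along Cacna1c, in kb from the 5′ end of the gene, with entries named Cacna1c above the line in green and entries labelled intergenic below it in purple. Line width follows the reads, and 6 arcs meet at the start of exon 2.

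Over all circRNAs, the same criteria called 90 of 2646 tested (3.4%), 28 higher and 62 lower with the HFD, and with plain library size the split was 37 and 38. At an adjusted p under 0.05, 2 circRNAs were called (0.0756%), neither from the list. Of the 56 circRNAs, 23 were tested and 2 were called, circRNA6626 and circRNA7069, both higher with the HFD and both without a read in any ND aorta. A circRNA with so few reads passes the filter only through the diet that has them. The median log2 fold change of the 23 was -0.38, against -0.13 over all circRNAs tested.

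**Figure D5:**
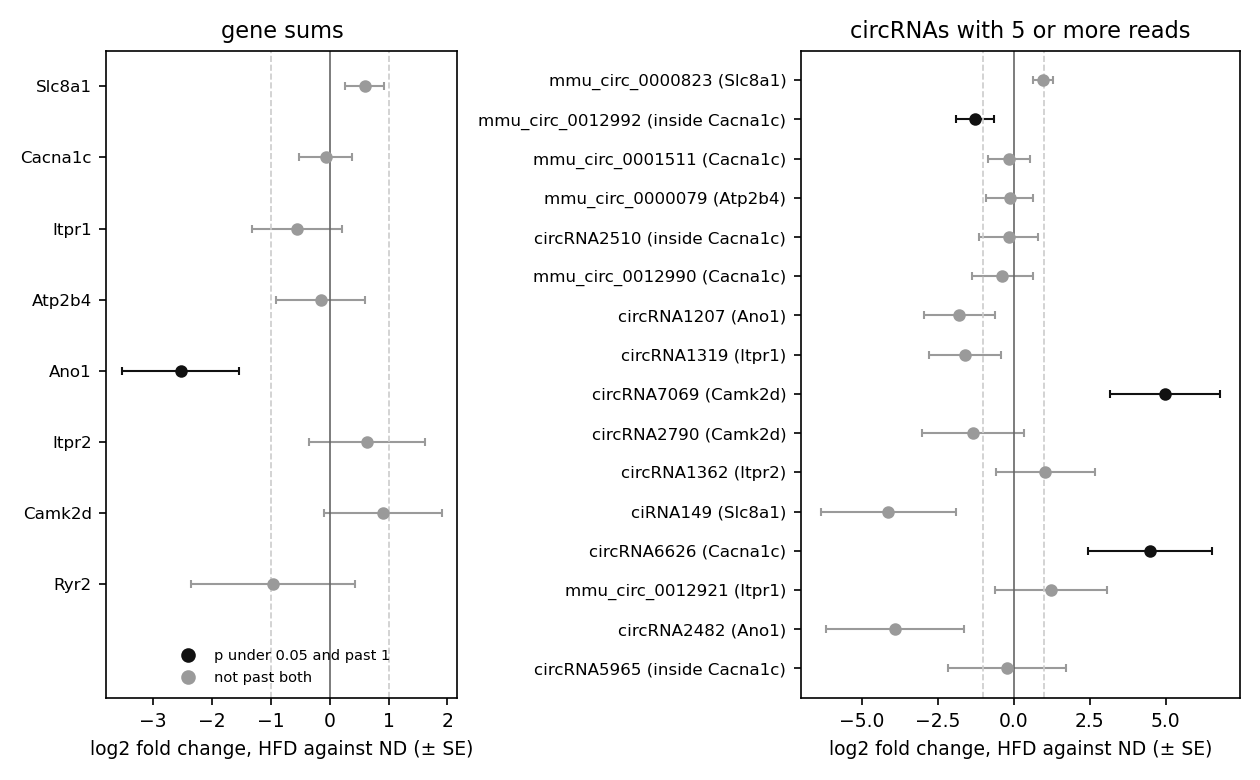
Points give the edgeR log2 fold change of HFD against ND with its SE, for gene sums (left) and for the tested circRNAs with at least 5 reads (right), in black where p was under 0.05 and the change past 1. Black points are Ano1 on the left and mmu_circ_0012992, circRNA7069 and circRNA6626 on the right. Fitted values of circRNAs without reads on 1 diet depend on the fit and are no bounds.

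The receptors that release stored calcium were seen at low counts. Itpr1 had 2, 6 and 3 reads in the HFD-fed mice and 10, 3 and 8 in the ND-fed mice, which overlapped. Its log2 fold change was -0.56 (SE 0.77, adjusted p = 0.956 in edgeR). Its leading circRNA, circRNA1319 of 705 bases, had 2, 1 and 0 reads under the HFD and 6, 2 and 5 under the ND, with a log2 fold change of -1.62 (SE 1.19, adjusted p = 0.612 in edgeR), and the diets overlapped. That value ran from -2.64 without HFD aorta 1 to -1.20 without HFD aorta 3. mmu_circ_0012921, which ends with the same exon, had 0, 1 and 3 reads under the HFD and 2, 0 and 0 under the ND.

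Itpr2 had 3, 3 and 5 reads under the HFD and 3, 4 and 2 under the ND, with a log2 fold change of 0.64 (SE 0.99, adjusted p = 0.956 in edgeR). Its reads were spread over 8 circRNAs, led by circRNA1362 of exons 16 to 20 with 8 reads. mmu_circ_0013175, of exons 48 to 54, had 1, 2 and 1 reads under the ND and none under the HFD. Ryr2, the ryanodine receptor best known from heart muscle, had 2, 1 and 0 reads under the HFD and 2, 2 and 4 under the ND, from 6 circRNAs of at most 4 reads. Its log2 fold change was -0.97 (SE 1.39, adjusted p = 0.956 in edgeR), and ran from -1.81 without HFD aorta 1 to -0.38 without HFD aorta 3. For all 3 receptors the diets overlapped, and the standard errors were larger than the differences.

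The pump gene Atp2b4 was represented by 1 circRNA, mmu_circ_0000079, its exon 2 of 661 bases. It had 2, 4 and 7 reads in the HFD-fed mice and 5, 0 and 14 in the ND-fed mice. The ND aortas held both the lowest and the highest value, so that the spread within that diet covered the HFD aortas entirely. The log2 fold change was -0.15 (SE 0.75, adjusted p = 0.956 in edgeR), and it turned positive in 5 of its alternative fits. The exon carries the start codon of the pump at base 469, and reading from it crossed the back-splice and met a stop after 66 codons.

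Camk2d had 5, 7 and 0 reads under the HFD and 4, 0 and 4 under the ND, with a log2 fold change of 0.91 (SE 0.99, adjusted p = 0.956 in edgeR), which ran from 0.35 without HFD aorta 2 to 1.53 without HFD aorta 3. Its 2 exonic circRNAs differed in the aortas where they were seen. circRNA7069 had 5, 5 and 0 reads under the HFD and none under the ND, and circRNA2790, exons 6 to 15, had 0, 2 and 0 under the HFD and 3, 0 and 4 under the ND. HFD aorta 3 and ND aorta 2 had neither. circRNA7069 met the criteria (adjusted p = 0.605 in edgeR), but HFD aorta 3 was at 0 like the ND aortas, so the diets overlapped, and no fold is given since its reads rest on 2 aortas. The call was lost without any one of the ND aortas (adjusted p from 0.525 to 0.561 in edgeR, and 0.458 to 0.999 over all alternatives), in DESeq2 and in the block fit, and it could not be fitted without HFD aorta 1 or 2. Both entries are named by Ensembl ID, so each 0 may stand for 1 read. The circle of circRNA7069 is short and is shown whole, with the bases after its first exon in capitals.
circRNA7069: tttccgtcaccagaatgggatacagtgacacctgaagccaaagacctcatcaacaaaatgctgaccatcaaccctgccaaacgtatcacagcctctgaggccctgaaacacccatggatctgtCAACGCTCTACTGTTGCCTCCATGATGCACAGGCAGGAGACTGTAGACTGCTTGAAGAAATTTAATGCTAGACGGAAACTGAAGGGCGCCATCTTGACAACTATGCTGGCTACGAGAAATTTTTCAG
Camk2g had 5 reads, all in HFD aorta 2, from the intronic ciRNA706 (3 reads) and the exonic circRNA7451 (2 reads). It was not tested, since 1 aorta held every read.

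In structure, the exonic circRNAs of the list resembled the table as a whole in some measures. The 50 for which exons could be assigned had a median of 4 exons, as had all 8296 such circRNAs, and a median length of 637 bases against 554. The median intron upstream was 7323 bases against 7272, and downstream 10954 against 5851. Of the 50, 10 (20%) started at exon 2, against 28.5% of all, and those 10 held 63.5% of the reads, against 41.8%. For the 3 that include the start codon, the share of reads was 47.3%, against 18.5%. Both shares of reads rest largely on mmu_circ_0000823. Exon numbers are those of the transcript assigned to each entry. Among the 10, circRNA7069 lies within circRNA2790, which spans exons 6 to 15 of another Camk2d transcript. The first exon of circRNA629 and circRNA4961, also among the 10, is exon 3 in the transcript of mmu_circ_0007050. These values describe the circRNAs and were not tested.

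Other genes of calcium and chloride handling were read from a list of 95, covering voltage-gated subunits, store-operated and TRP channels, pumps, mitochondrial transport, chloride channels, kinases and phosphatases. Of these, 34 had reads, 239 in all, and 18 were tested. In edgeR none of the 18 met the criteria, which 4.33% of all host genes tested did, none had an unadjusted p under 0.05, and none an adjusted p under 0.05. Their median log2 fold change was -0.33, against -0.13 over all host genes tested. The most abundant was Trpc6, a receptor-operated cation channel, with 4, 12 and 10 reads under the HFD and 1, 21 and 2 under the ND, so that ND aorta 2 alone exceeded every HFD aorta. Ano6, a phospholipid scramblase of the same family as Ano1, had 0, 3 and 1 reads under the HFD and 7, 0 and 7 under the ND, which overlapped (log2 fold change -1.37, SE 1.14, adjusted p = 0.821 in edgeR). Slc8b1, the mitochondrial sodium-calcium exchanger, held 21 reads, Trpm7, a channel with a kinase domain, 16, and Camta1, a calmodulin-binding transcription activator, 16.

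Marker genes were read in the same way, by the reads of their circRNAs. Smooth muscle markers had circRNA reads for 9 of 12 genes, Myh11, Acta2 and Myocd among them, at 3.12 to 6.27 per 1000 back-spliced reads with a host gene under the HFD and 4.75 to 7.86 under the ND. Tagln and Cnn1 had none. Cardiac markers had reads for 3 of 9 genes, at 0.18 to 1.87 per 1000 under the HFD and 0.29 to 0.83 under the ND. Myh6, Tnnt2 and Actc1 were at 0, and 1 of the 3 genes with reads is Ryr2 itself. The value of 1.87 was that of HFD aorta 3, which also had the most reads of mmu_circ_0000823 (40), and a link between them was not tested. Skeletal muscle markers had 2 of 9 genes with reads, both in ND aorta 1 alone (0.27 per 1000). Adipocyte markers had 4 of 7, at 1.09 to 1.73 under the HFD and 1.91 to 3.89 under the ND. The 4 were Pparg, Acaca, Lpl and Acacb, while Adipoq, Plin1 and Cidec were at 0. The paper counts Lpl among genes of foam cell formation, so these values need not stand for fat cells. Leukocyte markers had 7 of 8, at 0.65 to 1.45 under the HFD and 0.27 to 0.72 under the ND, endothelial markers 3 of 7, at 0.54 to 1.66 and 0.14 to 0.69, and nerve markers 2 of 6, at 0 to 0.22 and 0 to 0.86. The summed values of Pparg, Acaca, Lpl and Acacb and the sequencing depth were thus higher in every ND aorta, as were Ano1 and mmu_circ_0012992. The part of either in these differences was not tested.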

How the data were processed

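circRNAs were measured by RNA sequencing in 6 aortas (3 HFD, 3 ND), grouped and numbered by the sample labels. The labels and the methods of the study mention RNase R, and the methods also ribosomal RNA depletion. The authors trimmed reads with Cutadapt, checked them with FastQC, and called back-splices with TopHat-Fusion, CIRCexplorer and CIRI. The genome build is not given in the sources used here. Exon ends matched GENCODE vM21, so GRCm38 is given. The deposited counts are back-spliced reads without normalization, and the deposited signal (SRPBM) is each count divided by a library depth. The authors' log2 fold changes, p-values and q-values were not used.

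The gene, marker and pathway lists and the tests were chosen with earlier results of these data known. Host genes given as Ensembl IDs (891) were all matched to symbols. Entries that agreed in chromosome, strand and end and started 1 base apart (475 pairs) were summed, and 9 of their 1672 library values had reads in both entries. Entries without a host gene (2.46% of reads) were left out of gene sums. Counts were tested with edgeR 4.0.16 (TMM, glmQLFit, glmQLFTest, R 4.3.3) without a replicate block, with Benjamini-Hochberg adjustment over all genes or circRNAs tested. Normalized reads are counts over the effective library size, scaled to the mean library. Counting intervals of ratios are conditional binomial intervals at 95% on the summed reads of each diet, and cover counting error only. The rule for naming took the whole list, circRNAs with at least 10 reads or called, intergenic entries inside Cacna1c, and the 5 pathway genes with most reads. circRNAs of fewer reads named besides these were chosen after their values were seen. Alternatives were DESeq2 1.42.0, limma 3.58.1 on log2 SRPBM, other scalings and filters, other treatments of entries, a block, and each aorta left out. Replicate libraries were distinct (chi-square of 1.78 to 2.86 per degree of freedom). The labels tell no more of the mice than their numbers, so p-values measure the spread between these samples.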

Additional observations from a re-analysis of the deposited data

How the results depend on the processing

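The criteria called 97 host genes and 90 circRNAs in edgeR. DESeq2 called 34 and 21, a minimum of 10 reads left 49 and 48 (881 and 672 were tested), and leaving out each aorta in turn gave 35 to 121 and 47 to 114, with the fewest genes without ND aorta 3 and the fewest circRNAs without ND aorta 1. At an adjusted p under 0.05, leaving out an aorta called 0 to 4 host genes, against 4 with all aortas, and always 0 circRNAs, against 2. With the replicate number as a block, 38 host genes and 30 circRNAs met the criteria. The numbers do not pair the aortas, since the deviations from the group mean of aortas with 1 number correlated at -0.07, -0.05 and -0.07. Plain library size moved the median log2 fold change of all host genes from -0.13 to 0.03, and limma split its 113 called genes into 24 higher and 89 lower. The shares of the list changed by less than 1 SD.

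For 18 named genes and circRNAs, 271 alternative fits gave 225 results with the same direction and call, 21 that lost the call, 7 that gained it and 18 that turned direction. The log2 fold change of Cacna1c turned to 0.070 in DESeq2, 0.0083 with at least 10 reads and 0.097 with library size, and ran from -0.22 to 0.16 with an aorta left out. Atp2b4 turned to 0.0054 with library size, 0.38 in limma and 0.15 with the block, and ran from -0.67 to 1.14 with an aorta left out. Its circRNA mmu_circ_0000079 turned to 0.034, 0.38 and 0.22 in the same fits, and ran from -0.85 to 1.00. mmu_circ_0001511 turned to 0.027 with library size. circRNA1207, without its partner entry, turned to 0.68 (entries as deposited) and 0.75 (entries named by symbol), which follows from leaving out the partner's reads. The cause of the others was not tested.

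Depth limits every value here. All but 1 of the circRNAs of the list had few reads per aorta, and entries named by Ensembl ID or labelled intergenic almost never held a count of 1. None of the 18 reached an adjusted p under 0.05 in any alternative.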

Other observations

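ND aorta 2 stood apart for some genes of the list, as the only aorta with 0 reads of Atp2b4, with the lowest value of Slc8a1 among all aortas, and the lowest share of reads for the list (0.64%, exact interval 0.47 to 0.86%). It also held 21 of the 50 reads of Trpc6 and the highest value of the adipocyte list (Pparg, Acaca, Lpl and Acacb), 3.89 per 1000 reads with a host gene. Its total of 7142 back-spliced reads was close to those of the other ND aortas.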
